A study of Mus musculus with 20 samples.

Results

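Entry into meiosis in the mouse testis passes a small set of gatekeeper genes, and 5 of them were followed here: Stra8, Gm1564 (the symbol the count table gives to Meioc), Ythdc2, Dmrt1 and Dmrtb1 (also called Dmrt6). They were taken by name, with earlier results of these data known, as 5 of the 23366 genes in the RNA count table. Each was found as 1 row. RNA came from wild-type C57BL/6J mice, and the labels name no other allele and no treatment. The groups were whole testis on day 1, day 3 and day 7 after birth, and leptotene/zygotene or pachytene spermatocytes from adults of 70 to 80 days, enriched by unit-gravity sedimentation, a sorting by cell size. Each of the 5 stages had 2 biological replicates, giving 10 libraries. A testis of the first week holds somatic cells and early germ cells, gonocytes at first and then spermatogonia, whereas the adult fractions are enriched germ cells. A difference between testis and fraction is thus one of cell content as well as of stage, and one between testis ages can be too.

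In the testis, spermatogonia divide by mitosis until a pulse of retinoic acid lets them enter meiosis. STRA8 is induced by retinoic acid and acts in the nucleus, with its partner MEIOSIN, to switch on meiotic genes. MEIOC and YTHDC2 act after that on RNA: YTHDC2 is an RNA helicase that binds N6-methyladenosine, MEIOC is its partner, and germ cells that lack either one begin meiosis but fall back into a mitosis-like division. DMRT1 and DMRTB1 are DNA-binding factors of the DM domain family. DMRT1 holds spermatogonia out of meiosis and restrains Stra8, and it is also made in Sertoli cells, the supporting cells of the tubule. DMRTB1 is needed for the change from the spermatogonial to the meiotic programme.

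The 3 genes that rose between day 3 and day 7 (Stra8, Gm1564 and Dmrtb1) are shown with the 250 bases before an annotated start, since a nuclear receptor and DM domain factors are known to act on DNA near such starts. The sequences are from RefSeq on GRCm38.p6, 5′ to 3′ on the strand of the gene, with the base before the start last; entries were used for 3 of the 5 genes. Capitals mark matches to AGGTCA (a half-site of retinoic acid receptors) and to ACANTGT (the core of the motif that DM domain factors bind).
Stra8, chr6:34920698-34920947, plus strand: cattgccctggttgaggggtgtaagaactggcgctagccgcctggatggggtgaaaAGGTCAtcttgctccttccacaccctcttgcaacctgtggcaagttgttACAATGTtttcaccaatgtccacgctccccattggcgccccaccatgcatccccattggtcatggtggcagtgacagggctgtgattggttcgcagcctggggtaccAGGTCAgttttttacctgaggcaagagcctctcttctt
Gm1564 (Meioc), chr11:102665335-102665584, plus strand: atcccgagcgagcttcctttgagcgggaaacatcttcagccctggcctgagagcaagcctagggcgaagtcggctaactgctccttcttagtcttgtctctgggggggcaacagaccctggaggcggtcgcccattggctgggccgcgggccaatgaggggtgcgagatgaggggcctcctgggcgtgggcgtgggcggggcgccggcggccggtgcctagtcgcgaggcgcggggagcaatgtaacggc
Dmrtb1, chr4:107684231-107684480, minus strand, the farther upstream of 2 listed starts: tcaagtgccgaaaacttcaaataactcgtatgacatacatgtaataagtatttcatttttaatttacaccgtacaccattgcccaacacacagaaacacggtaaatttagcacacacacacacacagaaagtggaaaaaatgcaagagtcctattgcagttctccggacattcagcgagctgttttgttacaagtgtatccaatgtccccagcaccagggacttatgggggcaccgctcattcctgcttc

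The Stra8 window held AGGTCA at 2 positions, -194 to -189 and -38 to -33 from the start, and ACANTGT once, as ACAATGT at -145 to -139. Of 32851 mouse windows of the same length, 14% held AGGTCA, 1.36% held it at 2 or more positions and 6.47% held ACANTGT. The windows of Gm1564 and of both Dmrtb1 starts held neither of these. No window of the 3 genes matched the other half-sites searched, which were AGTTCA, found in 11.8% of mouse windows, GGGTCA, found in 11.6%, and GGTTCA, found in 8.85%. None matched CNCCTCAG, a motif of STRA8 that 6.42% of windows held, or the E-box CACGTG, which 6.02% held. Both strands were searched and the matches did not overlap. A match is a description of letters and not of binding.

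Counts on genes came to 3597360 to 22181395 per library, and levels are given as CPM, the usual count corrected for depth, after TMM scaling. They are compared between stages but not between genes, since transcript lengths were not used. Between testis and fractions the comparison depends on the scaling. From day 7 to leptotene/zygotene the median log2 fold change of all genes was -0.31 with TMM and -1.71 with plain library sizes. The labels were checked against marker lists. Sertoli markers (19 genes) summed to 5467 to 7524 CPM in the testis libraries and to 313 to 675 in the spermatocyte libraries. Amh was at 0.451 CPM in leptotene/zygotene against 433 on day 7. It defines immature Sertoli cells and the fractions came from adults, so its level cannot show whether adult Sertoli cells were present. The libraries labelled leptotene/zygotene did not have the profile of their label alone. Of 31 early meiotic genes tested, Dmc1 and Prdm9 among them, 21 were higher there than on day 7 and 3 lower. Over all genes 36.5% were higher and 42% lower. Dmc1 and Prdm9, which act in the repair and placing of meiotic breaks at those stages, stood there at 7.31 ± 3.41 and 6.71 ± 4.95 CPM (SD, n = 2), against a range of 9.92 to 10.1 for Dmc1 and 3.38 to 3.64 for Prdm9 in the day 7 libraries, with no call for either gene (adjusted p 0.306 and 0.259, edgeR). All 21 spermatid markers were higher there than on day 7, and their sum was 96739 and 101734 CPM, against 15479 and 12421 in pachytene and 89.7 to 148 in the testis. Prm2, which packs DNA in elongating spermatids, was at 21746 ± 26.3 CPM in leptotene/zygotene and 1975 ± 827 in pachytene. The part of these transcripts in the results below was not tested, so the 5 genes and the counts of each gene list described below are also given for pachytene against day 7.

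**Figure D1:**
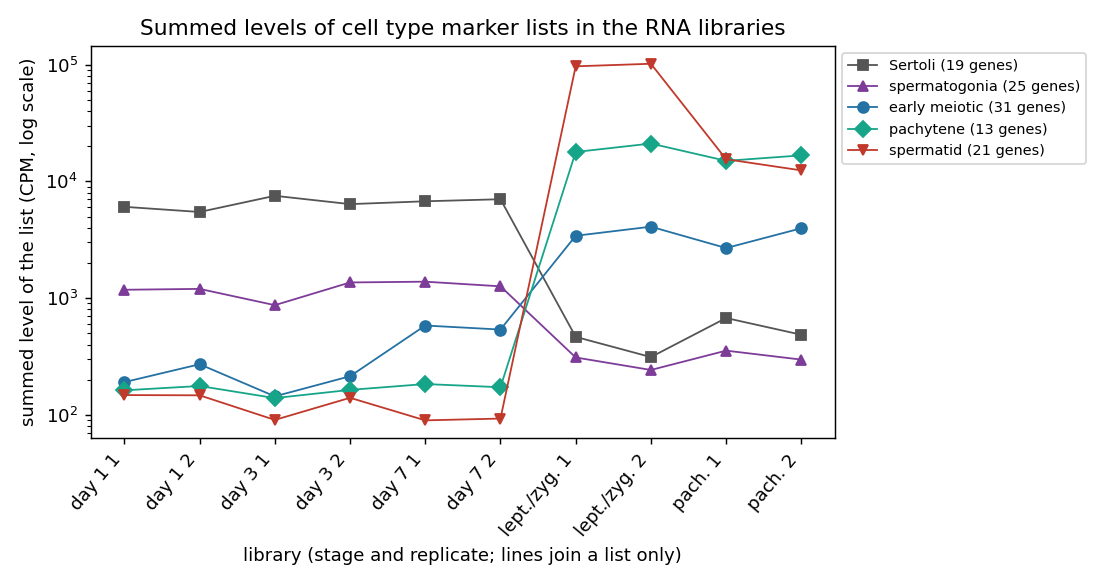
Summed level of 5 marker lists in each of the 10 RNA libraries (CPM, log axis; 1 point a library, lines only join a list). Spermatid markers reach 96739 and 101734 CPM in the libraries labelled leptotene/zygotene, above those labelled pachytene, and Sertoli markers fall from at least 5467 to at most 675 CPM.

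Stra8, the retinoic acid response gene, had a single high stage. The day 1 libraries had 1.36 and 1.64 CPM (11 and 19 counts), and the day 3 libraries 1.63 and 3.25. On day 7 it reached 52.1 and 37.6 CPM, above every other library. In leptotene/zygotene it was at 7.78 and 6.61 CPM and in pachytene at 7.73 and 3.99, so both fractions lay between day 3 and day 7.

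Gm1564, the partner of Ythdc2, was lowest in the first week and highest in the adult fractions. Its levels were 4.19 and 7.16 CPM on day 1, 2.06 and 3.09 on day 3 and 12.6 and 14.9 on day 7. In leptotene/zygotene they were 272 and 190 CPM, and in pachytene 548 and 424. The libraries of consecutive stages did not overlap at any of the 4 steps, though day 3 against day 1 did not pass (adjusted p 0.599, edgeR). Such gaps between 2 and 2 libraries, here and for the other genes, were not counted over all genes.

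Ythdc2, the helicase, varied least of the 5 genes. It stood at 21.3 and 27.8 CPM on day 1, 18.0 and 21.9 on day 3, and 33.5 and 31.5 on day 7. Leptotene/zygotene gave 29.2 and 18.8 CPM and pachytene 73.4 and 45.8. Only pachytene lay above all other libraries, and its 2 libraries differed by more than the stage means of the testis did from each other.

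Dmrt1, the factor that holds spermatogonia in mitosis, was high in the testis and low in the fractions. The day 1 libraries had 117 and 109 CPM, those of day 3 had 117 and 123, and those of day 7 had 269 and 248. In leptotene/zygotene it was at 15.1 and 8.91 CPM and in pachytene at 20.9 and 7.84. Every testis library lay above every spermatocyte library.

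Dmrtb1, the DM domain factor of the switch to meiosis, had the widest range. The day 1 libraries had 2.46 and 2.93 CPM, those of day 3 had 0.466 and 2.11, and those of day 7 had 23.1 and 16.1. In leptotene/zygotene it was at 1330 and 2038 CPM and in pachytene at 1556 and 1712. Prm2, the spermatid gene, ranged from 8.99 to 9.31 CPM on day 1, from 0.0333 to 6.59 on day 3 and up to 0.0614 on day 7. Whether RNA of later germ cells reached the youngest libraries, and its part in their low Dmrtb1 levels, was not tested. No stages of Dmrtb1 overlapped except leptotene/zygotene and pachytene, though day 3 against day 1 did not pass (adjusted p 0.804, edgeR). The share of all genes with such gaps was not counted.

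**Figure D2:**
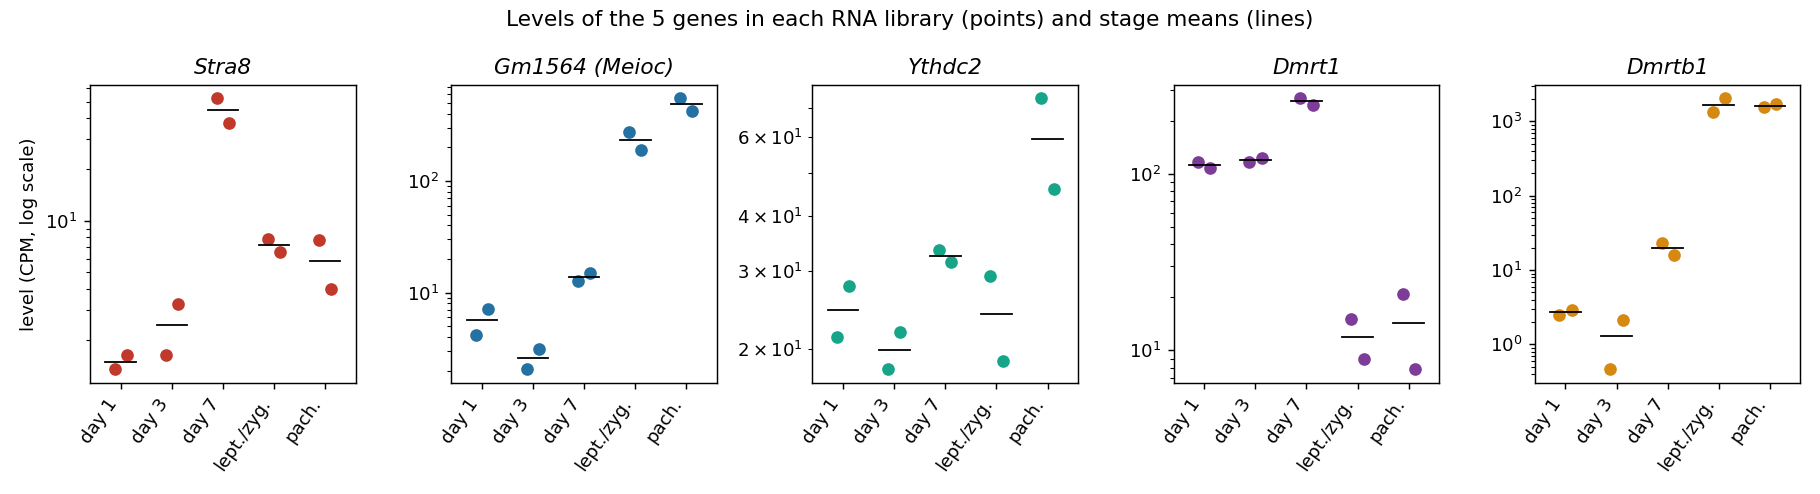
Level of each of the 5 genes (CPM, log axis with a scale of its own for each gene) in the 2 libraries of each stage (points) with the stage mean (line). Stra8 and Dmrt1 are highest on day 7 (means 44.8 and 258 CPM), Gm1564 and Ythdc2 in pachytene (486 and 59.6), and Dmrtb1 lies between 1330 and 2038 CPM in the 4 spermatocyte libraries.

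Between day 1 and day 3, none of the 5 genes changed past an adjusted p of 0.05 in edgeR's quasi-likelihood test, and neither did any of the 16872 genes tested (0%). Without adjustment 1097 genes had a p under 0.05, 1 of them among the 5 (Gm1564). DESeq2 made 79 calls, with none of the 5. The largest estimates among the 5 were log2 fold changes of -1.24 ± 0.62 (SE; adjusted p 0.804) for Dmrtb1 and -1.18 ± 0.36 (adjusted p 0.599) for Gm1564, whose day 3 libraries lay below those of day 1. With 2 libraries a stage, an exact permutation test of a single gene cannot go below 0.333, so calls rest on the spread shared over genes.

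Between day 3 and day 7, Stra8, Gm1564 and Dmrtb1 rose, and the other two did not pass. Over all genes 1.49% passed, 0.931% as higher, against 3 of 5 here. The median log2 fold change was 2.45 over the 5 genes and -0.02 over all. The 5 genes were chosen with earlier results of these data known, so these shares are a description and no test of the set. Stra8 rose from 2.44 ± 1.15 to 44.8 ± 10.3 CPM, 18.4-fold (log2 fold change 4.24 ± 0.46, adjusted p 0.00920). Dmrtb1 rose from 1.29 ± 1.17 to 19.6 ± 4.96 CPM, with a log2 fold change of 4.09 ± 0.59 (adjusted p 0.0167), and Gm1564 from 2.58 ± 0.73 to 13.8 ± 1.62 CPM, with one of 2.45 ± 0.36 (adjusted p 0.0171). Only 0.0652% of genes had a larger log2 fold change than Stra8, 0.101% than Dmrtb1 and 1.05% than Gm1564. Dmrt1 had an estimate of 1.10 ± 0.39 (adjusted p 0.220) and Ythdc2 of 0.71 ± 0.31 (adjusted p 0.352). In both, the day 7 libraries lay above those of day 3, a gap that was not counted over all genes.

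The calls of this step rested on both day 7 libraries. Without day 7 replicate 1 or without day 7 replicate 2, no gene of the table passed. The adjusted p of Stra8 was then 0.137 and 0.0989, that of Gm1564 0.179 and 0.225, and that of Dmrtb1 0.173 and 0.119. Gm1564 also did not pass without day 3 replicate 1 (0.135), nor Dmrtb1 without day 1 replicate 2 (0.0502). The log2 fold change of Dmrtb1 was 3.11 without day 3 replicate 1 and 5.18 without day 3 replicate 2. In the 6 testis libraries alone, whose spread was smaller, 14% of genes passed (6.6% higher) and all 5 of the genes were higher on day 7, Dmrt1 at an adjusted p of 0.00468 and Ythdc2 at 0.0402. Without both leptotene/zygotene libraries the same 3 genes passed, against 4.18% of all genes.

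Against day 1, day 7 was higher for 2 of the 5 genes, where 3.36% of all genes passed and 1.08% were higher. Stra8 was 30.0-fold higher (log2 fold change 4.88 ± 0.49, adjusted p 0.00527), and Dmrtb1 7.26-fold (2.85 ± 0.56, adjusted p 0.0298). Gm1564 (1.26 ± 0.34, adjusted p 0.0773), Dmrt1 (1.19 ± 0.39, 0.128) and Ythdc2 (0.40 ± 0.31, 0.593) did not pass. Neither call held without day 1 replicate 1, day 1 replicate 2, day 7 replicate 1 or day 7 replicate 2: the adjusted p of Stra8 ran from 0.0647 to 0.111 and that of Dmrtb1 from 0.159 to 0.232. In the testis libraries alone 4 of the 5 passed, all but Ythdc2, against 19.4% of all genes. In the libraries of days 1 and 7 alone all 5 passed, against 45.5% of all genes. Without both leptotene/zygotene libraries 3 passed, with Gm1564 at an adjusted p of 0.0434, against 7.62% of all genes.

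**Figure D3:**
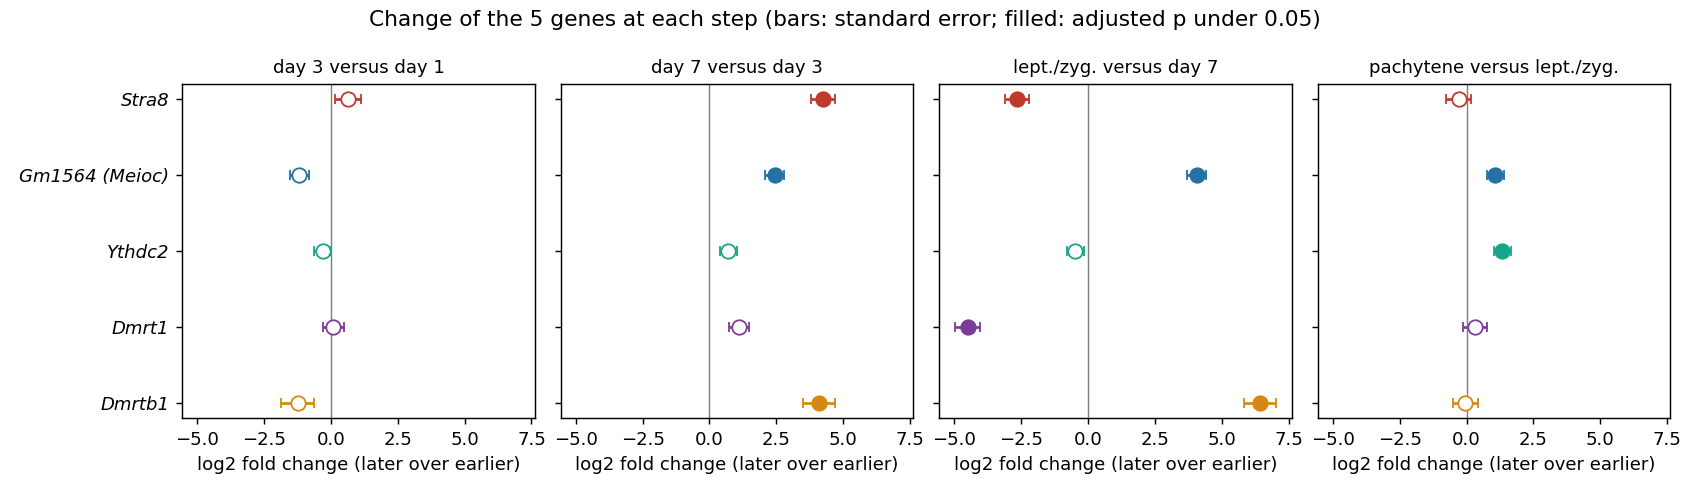
Log2 fold change of the 5 genes at each of the 4 steps between consecutive stages (later over earlier, from edgeR; bars, standard error; filled points, adjusted p under 0.05). Stra8, Gm1564 and Dmrtb1 are filled at day 7 versus day 3 (4.24, 2.45 and 4.09), and at the next step Stra8 and Dmrt1 are below 0 and Gm1564 and Dmrtb1 above.

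A whole testis mixes cell types, and in these libraries fewer cells of a type and less RNA per cell cannot be told apart. Counts of 4 germ cell genes, Ddx4, Dazl, Dnd1 and Tdrd5, summed to 84.3 to 163 CPM on days 1 and 3 and to 454 and 412 on day 7. The 5 genes were therefore also counted per 100 counts of these 4. On that scale Stra8 gave 1.57 and 1.01 for the day 1 libraries, 1.93 and 2.80 for day 3, and 11.5 and 9.11 for day 7, so day 7 stayed above the other days. Dmrtb1 was at 2.85 and 1.80, then 0.553 and 1.82, then 5.08 and 3.90, again highest on day 7. Gm1564 was at 4.84 and 4.40, then 2.45 and 2.66, then 2.78 and 3.62, with day 1 highest.

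Ythdc2 and Dmrt1, which somatic cells of the testis can also express, were lowest on day 7 on the germ cell scale. Ythdc2 went from 24.6 and 17.1 on day 1 and 21.4 and 18.8 on day 3 to 7.38 and 7.64 on day 7. Dmrt1 went from 135 and 66.8 and from 139 and 106 to 59.1 and 60.1. With libraries scaled to these 4 genes in the edgeR fit, the median of all genes from day 3 to day 7 moved to -2.17, 0.119% of genes were higher and 87.3% lower. Stra8 (2.13, adjusted p 0.000893) and Dmrtb1 (1.99, adjusted p 0.00129) were among the 20 higher genes, Gm1564 (0.33, adjusted p 0.555) and Dmrt1 (-1.04, adjusted p 0.0546) did not pass, and Ythdc2 was lower (-1.42, adjusted p 0.00963). Against day 1, on the same scaling, Stra8 was higher (3.05, adjusted p 7.43e-05), one of 40 genes (0.237%), and Dmrtb1 did not pass (0.99, adjusted p 0.0898). An adjusted p depends on how many genes pass, so those of this scaling do not compare with those of the TMM fit. The fit also took the 4-gene scale as exact, though its sums were 86.5 and 163 CPM in the day 1 libraries. Sertoli markers summed to 6752 and 7032 CPM in the day 7 libraries, within their range in the 4 younger ones. Other somatic markers were lower in sum: peritubular and stromal ones came to 6320 to 7898 CPM in the younger libraries and to 3783 and 4048 on day 7, those of Leydig cells to 682 to 1024 and then 366 and 548, and those of endothelium and blood to 298 to 468 and then 225 and 228. No gene of these 3 lists was called from day 3 to day 7, and their part in the step was not tested.

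**Figure D4:**
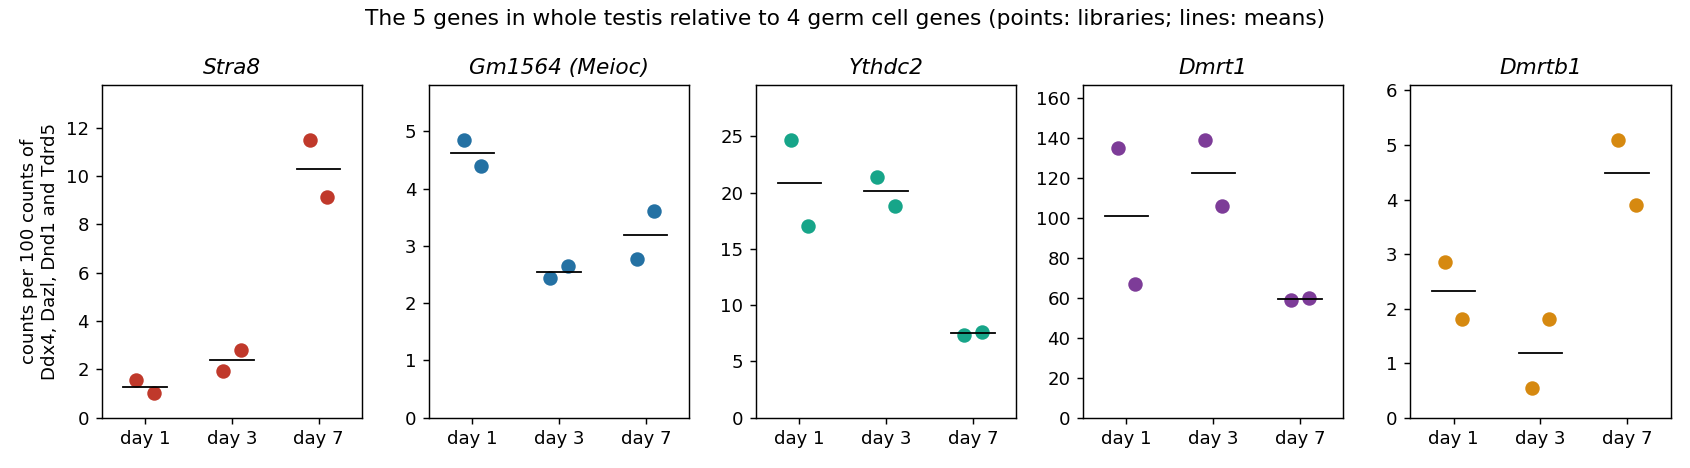
The 5 genes in the 6 whole testis libraries as counts per 100 counts of Ddx4, Dazl, Dnd1 and Tdrd5 together (points, libraries; lines, stage means; each gene has an axis of its own from 0). Stra8 rises from a mean of 2.37 on day 3 to 10.3 on day 7, while Ythdc2 and Dmrt1 are lowest on day 7.

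From day 7 testis to leptotene/zygotene, 4 of the 5 genes passed, 2 in each direction, at a step where 78.5% of all genes passed (36.5% higher, 42% lower). A count of 4 in 5 is thus near the background. Dmrtb1 was 86.0-fold higher in leptotene/zygotene (log2 fold change 6.42 ± 0.60, adjusted p 7.71e-06), and 10.8% of genes had a larger one. Gm1564 was 16.8-fold higher (4.07 ± 0.36, adjusted p 5.33e-06). Dmrt1 was lower, 258 ± 14.7 CPM on day 7 against 15.1 and 8.91 in the fraction's libraries (-4.50 ± 0.46, adjusted p 1.46e-05), as were 18 of 19 Sertoli and 19 of 25 spermatogonial markers. Stra8 was lower, 44.8 ± 10.3 against 7.19 ± 0.83 CPM (-2.66 ± 0.44, adjusted p 0.000342). Ythdc2 did not pass (-0.47 ± 0.33, adjusted p 0.206), though with plain library sizes, which moved the median of all genes from -0.31 to -1.71, it was lower (-1.84, adjusted p 0.00085).

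The same 4 genes differed between day 7 and pachytene in the same directions, where 75.2% of all genes passed. The log2 fold changes were 6.38 ± 0.60 for Dmrtb1 (adjusted p 9.34e-06), 5.14 for Gm1564 (adjusted p 2.25e-06), -4.18 for Dmrt1 (adjusted p 2.11e-05) and -2.96 for Stra8 (adjusted p 0.000184). Ythdc2 was higher in pachytene there (0.87 ± 0.32, adjusted p 0.0288). That call was lost with upper-quartile factors (adjusted p 0.145) and plain library sizes (0.914), and without day 7 replicate 1 (0.0978), day 7 replicate 2 (0.133) or pachytene replicate 1 (0.206). Fitted without both leptotene/zygotene libraries, all 5 genes passed, at log2 fold changes of 6.41, 5.17, -4.17, -2.94 and 0.90 in the order named. In that fit 12979 of the 16517 genes tested passed as well.

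From leptotene/zygotene to pachytene, Ythdc2 and its partner Gm1564 were the 2 genes that rose, where 22.2% of all genes passed and 9.03% were higher. Ythdc2 had a mean of 24.0 ± 7.31 CPM and then of 59.6 ± 19.5, a log2 fold change of 1.34 ± 0.33 (adjusted p 0.0192), and Gm1564 one of 231 ± 58.0 and then of 486 ± 87.9 (1.07 ± 0.32, adjusted p 0.0387). Stra8 (-0.29 ± 0.46, adjusted p 0.711), Dmrt1 (0.32 ± 0.44, 0.670) and Dmrtb1 (-0.04 ± 0.47, 0.982) did not pass, and their libraries overlapped. Neither rise passed when leptotene/zygotene replicate 2 (Gm1564 0.154, Ythdc2 0.103) or pachytene replicate 1 (0.145 and 0.0860) was left out, or with these 4 libraries alone (0.0928 and 0.109). Gm1564 also did not pass with median-ratio (0.0625) or upper-quartile factors (0.0600), nor without day 7 replicate 1 (0.0548), day 7 replicate 2 (0.0548) or pachytene replicate 2 (0.0550). Of the 21 spermatid markers 14 were lower in pachytene and none higher, beside 2220 lower among all 16872 genes tested. Of the Sertoli markers 6 of 19 were higher in pachytene (median 1.37), as were 2 of 6 Leydig markers, with none lower in either list. The part of these in the step was not tested.

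Ordered by level, Stra8 ran from day 7 through leptotene/zygotene, pachytene and day 3 to day 1. Its neighbours leptotene/zygotene and pachytene, and day 3 and day 1, did not differ past the test. Pachytene against day 3 passed (1.28 ± 0.45, adjusted p 0.0254), as did 75.8% of all genes. It did not pass without day 3 replicate 1 (0.195), pachytene replicate 1 (0.187), or either library of day 1 (0.0518 and 0.0515) or day 7 (0.0527 and 0.0509), nor with upper-quartile factors (0.0792), plain library sizes (0.308) or the 4 libraries alone (0.0761). For Gm1564 the order was pachytene, leptotene/zygotene, day 7, day 1 and day 3, with no call between day 7 and day 1 or between day 1 and day 3. For Ythdc2 it was pachytene, day 7, day 1, leptotene/zygotene and day 3, and pachytene against day 7 was the one pair of neighbours that passed. For Dmrt1 it was day 7, day 3, day 1, pachytene and leptotene/zygotene, and day 1 against pachytene (-2.99 ± 0.43, adjusted p 0.000142, where 75.3% of all genes passed) was the one pair that did. For Dmrtb1 it was leptotene/zygotene, pachytene, day 7, day 1 and day 3, with no call for the first pair or the last.

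The meiotic genes that follow the gatekeepers were counted on a list of 35, of which 31 were tested. At day 7 against day 3, 6 were higher and none lower, where 0.931% of all genes were higher, with a median log2 fold change of 1.29 against -0.02 over all genes. They included Sycp3, of the chromosome axis (2.55 to 17.8 CPM; 2.77 ± 0.41 on the log2 scale, adjusted p 0.0184), Stag3, a cohesin subunit (15.1 to 74.0 CPM; 2.30 ± 0.45, adjusted p 0.0434), and Syce1, of the synaptonemal complex (3.11 to 13.1 CPM; 2.10 ± 0.40, adjusted p 0.0405). The count was 16 of 30 in the testis libraries alone, where 6.6% of all genes were higher, and 12 of 31 without both leptotene/zygotene libraries, where 2.25% were. It was 3 with upper-quartile factors. It fell to 0 or 1 without either library of days 1, 3 or 7, and with scaling to the germ cell genes none was higher and 12 were lower, beside 0.119% and 87.3% of all genes. Rec8, the meiotic cohesin that STRA8 is known to promote, had 3.07 ± 0.08 CPM on day 3, then 8.83 ± 0.07, and did not pass (1.52 ± 0.58, adjusted p 0.264).

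In leptotene/zygotene against day 7, 21 of the 31 were higher and 3 lower (median 2.04 against -0.31 over all genes), and in pachytene against day 7, 23 were higher and 4 lower. Over all genes 36.5% were higher and 42% lower at the first of these comparisons, and 35.1% and 40.1% at the other. The largest rises in leptotene/zygotene were of Spo11, which makes the meiotic breaks (0.72 to 40.9 CPM; 5.86 ± 0.86, adjusted p 0.000143), Meiob (0.221 to 12.1 CPM; 5.70 ± 0.74, adjusted p 6.84e-05), a factor of break repair, and Syce1 (13.1 to 539 CPM; 5.36 ± 0.44, adjusted p 3.21e-06). In pachytene the log2 fold changes of these 3 against day 7 were 6.77, 6.29 and 5.11. With plain library sizes 13 were higher and 6 lower in leptotene/zygotene.

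Spermatogonial genes mark the state that Dmrt1 is known to keep. Of 25 tested, 6 were higher on day 7 than on day 3 and none lower (median 1.22), again beside 0.931% of all genes, led among those of at least 5 CPM by Sox3 (1.02 to 30.9 CPM; 4.86 ± 0.52, adjusted p 0.00920), Neurog3 (0.255 to 5.83 CPM; 4.44 ± 0.53, adjusted p 0.0112) and Sohlh1 (5.09 to 37.0 CPM; 2.85 ± 0.45, adjusted p 0.0233), all transcription factors of spermatogonia. Kit, the receptor of differentiating spermatogonia, went from 21.5 ± 2.68 to 81.3 ± 4.47 CPM and did not pass (1.92 ± 0.49, adjusted p 0.0921). The count was 12 without both leptotene/zygotene libraries (2.25% of all genes), 15 in the testis libraries alone (6.6%), 1 without day 3 replicate 1 and 0 without either day 7 library, and with germ cell scaling 3 were higher and 11 lower, beside the 0.119% and 87.3% of all genes. In leptotene/zygotene 19 were lower than on day 7 and 2 higher (median -2.98), and in pachytene 22 and 2, where 42% and then 40.1% of all genes were lower. With plain library sizes none was higher in leptotene/zygotene.

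Retinoic acid is the signal upstream of Stra8. Of 20 tested genes that make, carry, sense or break it down, Crabp1, which binds retinoic acid in the cytoplasm, was the 1 that rose from day 3 to day 7 (2.78 ± 1.01 to 28.0 ± 4.78 CPM; 3.36 ± 0.37, adjusted p 0.00920), and none fell; the median was -0.11. The receptors Rara (133.7 and 111 CPM on days 3 and 7) and Rarg (19.2 CPM on day 3, and 18.6 to 21.3 on day 7), the synthetic enzyme Aldh1a2 (39.0 and 40.8 CPM) and the degrading enzyme Cyp26b1 (202 and 306 CPM) did not pass (adjusted p 0.816, 0.984, 0.980 and 0.727). Crabp1 did not pass without either day 7 library. In leptotene/zygotene 15 were lower than on day 7 and 4 higher (median -2.15), and in pachytene 14 and 3; the 19 and 17 called of 20 stand beside 78.5% and 75.2% of all genes. Those lower in leptotene/zygotene included Aldh1a1, a retinaldehyde dehydrogenase, from 689 to 13.1 CPM (-5.92 ± 0.71, adjusted p 4.02e-05) and Cyp26b1, from 306 to 12.9 CPM (-4.77 ± 0.72, adjusted p 0.000177). The higher ones included Lrat, which stores retinol as esters, from 1.34 to 48.2 CPM (5.16 ± 0.39, adjusted p 2.12e-06), Rdh11, a retinol dehydrogenase, from 15.4 to 471 CPM (4.93 ± 0.29, adjusted p 5.93e-07) and Aldh1a2 (2.11 ± 0.35, adjusted p 0.000325). Each of these 5 passed in the same direction in pachytene against day 7, at -5.52, -5.54, 4.62, 4.97 and 2.49 in the order named.

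YTHDC2 reads N6-methyladenosine, and genes that write, erase or read that mark, or work beside it and MEIOC, were counted as a list. Of 19 tested, only Rbm46, an RNA-binding partner of the pair, passed from day 3 to day 7 (6.70 ± 3.17 to 25.6 ± 2.08 CPM; 1.96 ± 0.40, adjusted p 0.0488), and it was not called higher under any of the other scalings, nor when any one library of the testis or of pachytene was left out. In leptotene/zygotene 4 were higher and 7 lower than on day 7 (median -0.42), and in pachytene 6 were higher and 8 lower, in both cases no larger a share than of all genes (78.5% and 75.2%). Those of leptotene/zygotene were led by Igf2bp3, a reader (36.8 to 358 CPM; 3.28 ± 0.24, adjusted p 1.61e-06), Igf2bp2, its relative (24.9 to 2.83 CPM; -2.89 ± 0.36, adjusted p 4.89e-05), and Wtap, of the writer complex (66.8 to 10.3 CPM; -2.87 ± 0.50, adjusted p 0.000456). Without either day 7 library, or with upper-quartile factors, 2 were higher, and with plain library sizes 1 was higher and 15 lower. In pachytene against day 7 the 3 named genes stood at 2.29, -2.77 and -1.94, each called. Rbm46 rose from 31.8 to 108 CPM between leptotene/zygotene and pachytene (1.79 ± 0.40, adjusted p 0.0126), the step at which Gm1564, Ythdc2 and 9.03% of all genes were higher. Its call was lost with these 4 libraries alone and without leptotene/zygotene replicate 2, as were those of Gm1564 and Ythdc2. Mettl3, the methyltransferase, stayed between 19.7 and 30.8 CPM in all stage means with no call. Xrn1, the exonuclease that binds YTHDC2, was at 7.19 and 42.4 CPM in the day 3 libraries and passed at no step.

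Repressors of meiosis and genes that license it, 15 in all, included none that passed from day 3 to day 7 in the edgeR fit of all libraries; the unadjusted p was under 0.05 for 4, and DESeq2 made 2 calls, both higher. With plain library sizes 1 was higher, and in the testis libraries alone 4 were. In leptotene/zygotene 9 were lower and 2 higher than on day 7 (median -1.34), and in pachytene 8 and 2, near the 78.5% and 75.2% of all genes called. Those lower in leptotene/zygotene were led by Ccnd2, a mitotic cyclin (492 to 8.29 CPM; -6.23 ± 0.91, adjusted p 0.000143), and E2f6, of a complex that represses meiotic genes (57.8 to 3.52 CPM; -4.37 ± 0.79, adjusted p 0.00061). Ccna2, whose transcript MEIOC and YTHDC2 are known to hold down, was lower as well (124 ± 7.41 to 15.0 ± 5.34 CPM, adjusted p 1.2e-05). Against day 7, pachytene gave -6.47 for Ccnd2, -2.90 for E2f6 and -3.43 for Ccna2, all called. Nanos2, a repressor of Stra8 counted among the 9, had 1.54 ± 0.09 CPM on day 7 but rested on 2 counts in all in leptotene/zygotene. Its call was lost with median-ratio factors, with DESeq2, without either day 7 library and without leptotene/zygotene replicate 2. In leptotene/zygotene none was higher with upper-quartile factors (10 lower) or plain library sizes (13 lower), nor without either day 7 library (7 lower).

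The other 7 genes of the DM domain family gave 0 calls from day 3 to day 7 in edgeR and in DESeq2, and 2 had an unadjusted p under 0.05; in the testis libraries alone 2 of 6 were higher, beside 6.6% of all genes. In leptotene/zygotene against day 7 Dmrtc2, a factor of later spermatocytes, was higher (1.52 to 83.0 CPM; 5.77 ± 0.48, adjusted p 3.42e-06), as was Dmrta2 (1.35 to 28.8 CPM; 4.46 ± 0.81, adjusted p 0.00058), and Dmrta1 was lower (81.7 to 3.12 CPM; -5.24 ± 0.87, adjusted p 0.00034). Of all genes 36.5% were higher and 42% lower at that comparison. In pachytene against day 7 3 of the 7 were higher and 2 lower, beside 35.1% and 40.1% of all genes. The 3 genes named for leptotene/zygotene passed in the same directions, Dmrtc2 at 6.43 ± 0.49 (adjusted p 2.59e-06), Dmrta2 at 3.27 and Dmrta1 at -3.16.

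Genes of like pattern were ranked by Pearson's r of log2(CPM + 1) over the 10 libraries, among 13239 other genes, as a description with no test. The points share libraries, and for Gm1564, Dmrt1 and Dmrtb1 most of the variation is between testis and spermatocytes. The size of a change does not enter r. Nearest to Stra8 were Tex11, a meiotic gene (r = 0.960), B3galnt2 (0.950) and Grik3 (0.938), and Tex11 like Stra8 was highest on day 7, at a mean of 30.5 CPM. B3galnt2 varied little, with stage means from 41.3 to 57.3 CPM. Nearest to Gm1564 were Topaz1, a germ cell gene (0.995), Shcbp1l (0.993) and Ttc21b (0.993). Nearest to Ythdc2 were Zfp287 (0.973), Mphosph10 (0.972) and Epn2 (0.963), and to Dmrt1 were Klf8 (0.995), 2410002F23Rik (0.995) and Pla2g16 (0.994). Nearest to Dmrtb1 were Rimklb (0.998), Ttc34 (0.997) and Ddx4 (0.996). With 0.25 added in place of 1, 2 of the 3 were kept for Stra8 and Gm1564, all 3 for Ythdc2 and Dmrtb1, and 1 for Dmrt1.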

How the data were processed

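RNA was measured as whole-number counts per gene, which the authors deposited in a table with a column for every library. The submitters' processing notes name BWA (0.7.8), Bowtie (0.12.7), HTSeq (0.6.1), edgeR (3.6.8) and mm9. Their roles and the use of strand are not given, so reads of genes that overlap, or of an antisense partner, cannot be told apart. The 5 rows that name no gene (44.7% to 64.5% of reads) were left out, and small RNA was not analysed here.

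Genes kept by filterByExpr (minimum count 10; 16872 genes) were scaled by TMM and tested in edgeR 4.0.16 (R 4.3.3, limma 3.58.1), with 10 libraries in 1 fit and 5 residual degrees of freedom. The two-sided quasi-likelihood F test was adjusted by Benjamini-Hochberg over all genes, at 0.05. A standard error here is the size of the log2 fold change divided by the root of F. The scripts were tested on simulated data.

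The 5 genes and the lists were chosen with earlier results of these data known. Named are these 5, a fixed set, 3 genes of like pattern each (at least 10 CPM in some stage) and up to 3 per list with the largest change and at least 5 CPM. Ccnd2, Dazl and Sycp3 are on 2 lists each; Meiosin was not analysed here. No replicates were alike within sampling noise. Alternatives were median-ratio, upper-quartile, germ cell or no scaling factors, DESeq2 1.42.0, no filter, fewer libraries, a replicate block and leaving out each library, when its partner is assumed to vary like other stages. The fit without both leptotene/zygotene libraries was chosen after seeing the data.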

Additional observations from a re-analysis of the deposited data

How the results depend on the processing

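Of the 5 genes, 3 passed from day 3 to day 7, against 5 in the testis libraries alone and 0 to 3 when each library was left out in turn. Against day 1, day 7 gave 2, with 5 in the libraries of those stages alone, 4 in the testis libraries alone, and 0 to 3 when each library was left out. From leptotene/zygotene to pachytene 2 passed, with 1 under median-ratio and 1 under upper-quartile factors, 0 in the libraries of those stages alone, and 0 to 2 when each library was left out. The cause was not tested, beyond the fewer libraries in such fits. The 4 genes called from day 7 to leptotene/zygotene passed in every alternative run, and from day 1 to day 3 none of the 5 passed in any of them.

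Ythdc2 changed sign with germ cell scaling, to -1.42 for day 7 against day 3 and -1.47 against day 1, as did, without a call, Dmrt1 (-1.04 and -0.76) and, against day 1, Gm1564 (-0.53); the median of all genes was then -2.17 and -1.91. Ythdc2 also did so with plain library sizes, to -1.09 for leptotene/zygotene against day 3 (adjusted p 0.0157). Over all genes, calls from day 3 to day 7 ran from 0 without either day 7 library to 2126 in the testis libraries alone, against 252 in the fit reported, 437 with no filter and 1026 with DESeq2. With plain library sizes the split from day 7 to leptotene/zygotene was 4183 higher and 9928 lower, against 6163 and 7082, and that from leptotene/zygotene to pachytene 3732 and 1107, against 1524 and 2220.

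The labels do not say whether libraries with the same replicate number were prepared together. Same-numbered libraries deviated together with correlations from -0.153 to 0.746 over 10 pairs of stages, over 0.1 in 1 of them. Reads on no gene came to 63.3% and 64.5% in replicate 1 of leptotene/zygotene and of pachytene, against 45.4% and 49.0% in replicate 2. The block below spans all stages, and a batch shared by some stages only was not tested. With the replicate number as a block, 0, 3, 2, 4 and 2 of the 5 genes passed for day 3 against day 1, day 7 against day 3, day 7 against day 1, leptotene/zygotene against day 7 and pachytene against leptotene/zygotene, and Stra8 had a log2 fold change of 4.23 from day 3 to day 7, so the block changed no count. Depth limits Stra8 outside day 7, where it rested on 11 to 66 counts a library.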
